A study of Mus musculus with 7 samples.

Results

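The genes described here encode the peptide hormones that the testis makes and the receptors through which it reads gonadal signals. They were chosen by name, as 5 hormone genes (*Insl3*, *Inha*, *Inhba*, *Inhbb* and *Amh*) and 4 receptor genes (*Lhcgr*, *Fshr*, *Amhr2* and *Esr1*). Of these 9 genes, 8 are among the 19719 genes of the deposited expression table and all 8 passed the filter on low values, more than 1 CPM, the unit of the table in which reads are scaled for the size of the library, in at least 3 of 7 libraries. *Inhba*, annotated at chr13:16011851-16031621 in GENCODE M21 (GRCm38), is not listed, and is reported as below the filter of the table.

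RNA of total testis was sequenced from C57BL/6 males of 8 weeks of age. The controls, fl/Y, carry a floxed allele of the X-linked gene *Rlim*, which encodes a ubiquitin ligase, and are labelled WT. In the other group, cKO/Y Sox2-Cre, labelled Rlim-KO, a Cre transgene driven by *Sox2* deletes the floxed allele in the epiblast, so that the soma and the germline of the male both derive from cells without it. There are 3 fl/Y and 4 cKO/Y Sox2-Cre libraries, and the labels place the libraries numbered 1 and 2 of both groups in batch 2 and those numbered 3 or 4 in batch 1. The control name gives no Cre transgene, so that the transgene and the deletion cannot be told apart. The labels do not say what a batch is. The study calls the libraries biological replicates from littermates, without saying which were of the same litter, and p-values measure the spread between these libraries.

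Luteinizing hormone of the pituitary acts on LHCGR of the Leydig cells, which lie between the tubules and make testosterone and INSL3. Follicle-stimulating hormone acts on FSHR of the Sertoli cells, which line the tubules and make inhibin, a dimer of the alpha subunit (*Inha*) with a beta subunit (*Inhba* or *Inhbb*) that restrains FSH release. Dimers of beta subunits alone are activins, which act in the opposite sense on FSH. AMH is a Sertoli cell hormone that removes the Müllerian ducts in the male fetus and is known to decline at puberty, and ESR1 reads estrogen in interstitial cells and in the ducts that drain the testis.

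The results below turn on *Insl3*, whose gene is short and shares sequence with a neighbour. *Insl3* (ENSMUSG00000079019) lies at chr8:71689214-71690575 on the plus strand in GRCm38 and has 2 exons. Exon 1 (chr8:71689214-71689432, 219 bases) belongs to *Insl3* alone. Exon 2 (chr8:71690172-71690575, 404 bases) has the same start and end as the last exon of *Jak3*, a cytokine receptor kinase gene on the same strand, so that 35.15% of the exon bases of *Insl3* are its own. Counting programs commonly leave out a read that falls in exons of more than 1 gene, and the setting used is not given in the sources used here. None of the other 8 genes shares an exon base with another gene of the annotation. The coding part of exon 1 (chr8:71689258-71689432, 175 bases, plus strand, GENCODE M21) is shown because it holds the coding sequence that only *Insl3* reads can come from, with the start codon in capitals.
Insl3 exon 1, coding part: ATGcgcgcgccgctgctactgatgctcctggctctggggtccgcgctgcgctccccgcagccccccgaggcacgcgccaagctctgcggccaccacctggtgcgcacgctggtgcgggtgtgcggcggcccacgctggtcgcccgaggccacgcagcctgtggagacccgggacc

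**Figure D1:**
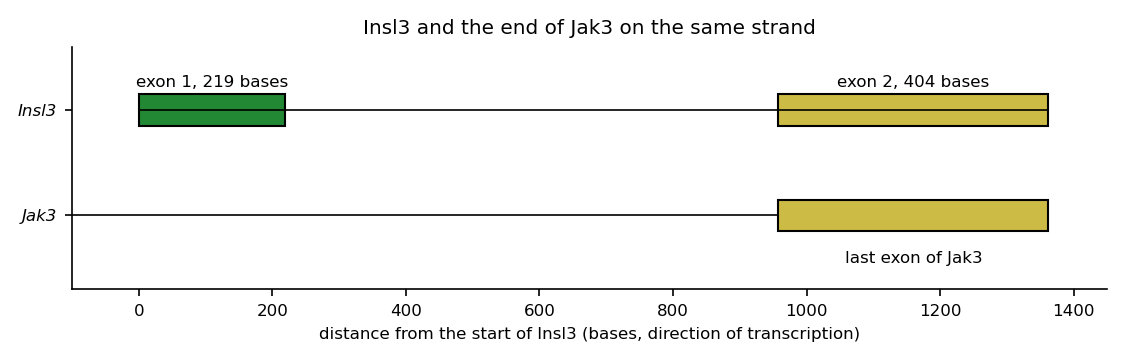
Map of *Insl3* and of the end of *Jak3*, drawn to scale from GENCODE M21, with the distance from the start of *Insl3* in bases on the x axis. Boxes are exons and lines are introns, the 219 bases of exon 1 (green) belong to *Insl3* alone, and the 404 bases of exon 2 (yellow) coincide with the last exon of *Jak3*.

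The promoters of both Leydig cell genes, *Insl3* and *Lhcgr*, are shown as a description. Any part of their motifs in how the levels vary between libraries was not tested. Of the 9 genes, 8 have an entry in the RefSeq promoter table (GRCm38.p6), with 250 bases before and 50 after the start, *Esr1* with more than 1, and *Amh* is the gene without an entry. The windows were searched on both strands for AAGGTC, the core of the motif bound by the steroidogenic factor NR5A1, and for the nuclear receptor motif AGGTCA, which overlaps it where AAGGTCA is read. They were also searched for AGATAA, 1 form of the GATA motif, and for the E-box CACGTG. Matches are in capitals, and only bases upstream of the annotated starts are printed.
Insl3, chr8:71689002-71689213, plus strand: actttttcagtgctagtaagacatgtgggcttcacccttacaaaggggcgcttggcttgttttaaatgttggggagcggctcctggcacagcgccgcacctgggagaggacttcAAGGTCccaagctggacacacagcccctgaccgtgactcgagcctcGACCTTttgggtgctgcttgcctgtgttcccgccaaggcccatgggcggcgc
Lhcgr, chr17:88792015-88792264, minus strand: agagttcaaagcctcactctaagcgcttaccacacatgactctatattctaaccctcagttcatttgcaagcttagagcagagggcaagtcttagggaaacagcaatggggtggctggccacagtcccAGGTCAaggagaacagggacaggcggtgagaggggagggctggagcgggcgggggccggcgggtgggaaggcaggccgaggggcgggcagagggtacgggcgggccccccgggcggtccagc

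The *Insl3* window holds 2 matches of AAGGTC, 1 on each strand, and none of AGGTCA, whereas the *Lhcgr* window holds 1 match of AGGTCA and none of AAGGTC. The *Amhr2* window holds 2 matches of AAGGTC, 1 of them also a match of AGGTCA, and the *Inha* window holds 1 match of AGGTCA. That *Inha* window (chr1:75507359-75507658, plus strand) lies inside the gene as annotated in GENCODE M21, downstream of its start at 75507077. Of 32851 promoter windows of this length, 12.26% hold AAGGTC and 16.26% hold AGGTCA. The *Fshr* window holds CACGTG, as do 7.15% of all windows, and AGATAA, present in 11.18%, was found in none of the members' windows. Other forms of the GATA motif were not searched for, so GATA sites are not excluded.

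The libraries held 2822168 to 8633399 reads in listed genes, so that 1 read was worth 0.1004 to 0.315 CPM, and 95% intervals from counts cover counting error only. *Rlim* reached 61.5 to 99.5 CPM in the fl/Y libraries against 20.7 to 35.7 CPM in those of cKO/Y Sox2-Cre, with no overlap and a log2 difference of -1.38 (SE 0.16, limma adjusted p = 0.0087). The tissue label fits most of the markers examined. The summed level of 10 elongating spermatid markers was 9120 to 14205 CPM, and all 16 Sertoli and all 13 Leydig cell markers were listed. Of 12 epididymis and efferent duct markers, 9 were not listed, among them *Crisp1*, *Lcn5*, *Lcn8* and *Adam7*. The other 3, *Aqp9*, *Rnase10* and *Slc9a3*, were listed, with a summed level of 44.97 to 75.68 CPM over the 7 libraries. Whether their reads come from duct tissue was not tested.

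*Insl3*, the Leydig cell hormone of testis descent, varied more between libraries than any other gene of the group. The fl/Y libraries gave 1.12, 6.26 and 51.5 CPM in replicates 1, 2 and 3. The cKO/Y Sox2-Cre libraries gave 5.89, 3.79, 119 and 61.1 CPM in replicates 1 to 4. The high values are those of fl/Y replicate 3 and cKO/Y Sox2-Cre replicates 3 and 4, the 3 libraries of batch 1, and the genotypes overlap. These levels rest on 6 to 609 reads in a library. The coefficient of variation over the 7 libraries was 125% for *Insl3* and 20.2% to 48.5% for the other 7 listed genes.

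*Inha*, the alpha subunit that makes a dimer an inhibin, had 114 to 351 reads in a library. In the order of the replicates, fl/Y gave 24.7, 28.7 and 32.9 CPM, and cKO/Y Sox2-Cre gave 35.4, 31.7, 50.1 and 35.2 CPM. The genotypes overlap only between fl/Y replicate 3 and cKO/Y Sox2-Cre replicate 2, and replicate 3 of cKO/Y Sox2-Cre stands above the rest.

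*Inhbb*, the beta B subunit of inhibin B and activin B, had 13.4, 13.5 and 18.0 CPM in fl/Y. Its cKO/Y Sox2-Cre libraries gave 17.7, 11.96, 19.8 and 20.2 CPM. Both the lowest and the highest library are of cKO/Y Sox2-Cre, and the fl/Y values lie between them. With *Inhba*, the beta A subunit, not listed, *Inhbb* was the only beta subunit gene in the table for the dimers of *Inha*, since *Inhbc* and *Inhbe*, the beta subunits known from liver, are not listed either.

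*Amh* was near the lower end of the table, with 3 to 30 reads in a library. Its fl/Y values were 1.30, 1.82 and 1.33 CPM, and those of cKO/Y Sox2-Cre 2.17, 0.598, 2.52 and 3.01 CPM. The fl/Y values fall inside the range of cKO/Y Sox2-Cre, and the counting interval of cKO/Y Sox2-Cre replicate 2, 0.123 to 1.75 CPM, reaches across the lower fl/Y values.

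*Lhcgr*, the luteinizing hormone receptor of Leydig cells, had 5.58, 8.48 and 9.55 CPM in fl/Y, and 11.5, 5.38, 11.7 and 4.62 CPM were read in cKO/Y Sox2-Cre. Its high and low libraries are spread over both genotypes and both batches. *Fshr*, the Sertoli cell receptor of FSH, had 2 to 16 reads in a library, with 1.49, 0.808 and 1.59 CPM in fl/Y and 2.48, 0.797, 0.630 and 1.61 CPM in cKO/Y Sox2-Cre. The counting intervals of *Fshr* overlap between all 7 libraries, so that a difference would not have been detectable at this depth unless it were large.

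*Amhr2*, the type II receptor of AMH, had the most reads of the 8 genes, 391 to 1164 in a library. Libraries of fl/Y gave 79.4, 120 and 118 CPM, and those of cKO/Y Sox2-Cre gave 144, 77.9, 147 and 117 CPM. The lowest library of each genotype is in batch 2, as is the highest of fl/Y, and the batches overlap. *Esr1*, estrogen receptor alpha, had 7.62, 9.89 and 13.8 CPM in fl/Y. In cKO/Y Sox2-Cre it had 12.1, 9.37, 11.97 and 9.13 CPM, and all 4 values lie inside the fl/Y range.

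**Figure D2:**
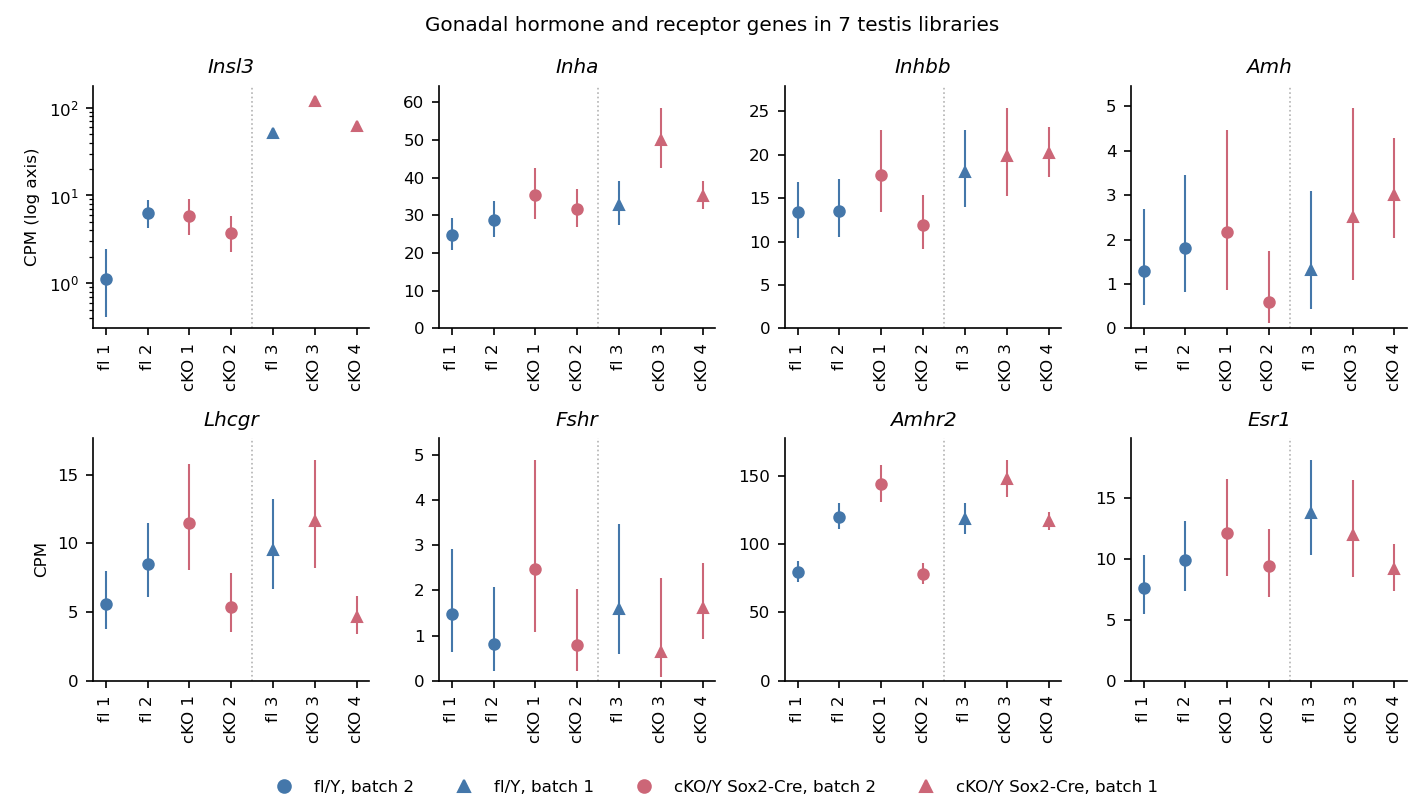
Level of the 8 listed genes in each library in CPM (y axis, a log axis for *Insl3* and axes from 0 for the others), with fl/Y in blue, cKO/Y Sox2-Cre in red, batch 2 as circles left of the dotted line and batch 1 as triangles right of it. Bars are exact 95% Poisson intervals of the read counts, and the *Insl3* values of batch 1, 51.5 to 119 CPM, all lie above those of batch 2, 1.12 to 6.26 CPM.

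Levels can be set side by side between genes only per length of exon. The length used was that of all bases in any annotated exon of the gene, over all its transcripts. It was 13661 bases for *Esr1*, 7645 for *Lhcgr*, 2360 for *Fshr* and 1670 for *Amh*, and the order of these genes holds for that length only. As mean CPM per kb over the 7 libraries, *Amhr2* was at 57.3 ± 13.8 (SD, n = 7), *Insl3* at 57.1 ± 71.4, a mean over batches that differ, and *Inha* at 23.1 ± 5.41. *Inhbb* followed with 3.85 ± 0.788 CPM per kb. The 4 remaining genes lay close together, *Amh* at 1.09 ± 0.491, *Lhcgr* at 1.06 ± 0.386, *Esr1* at 0.773 ± 0.156 and *Fshr* at 0.569 ± 0.276 CPM per kb. The place of *Insl3* in this order changed with the batch. In batch 2 it was at 1.79 to 10.05 CPM per kb, below both *Inha* (16.8 to 24.0) and *Amhr2* (38.9 to 71.8) in all 4 libraries, and in batch 1 it was at 82.6 to 192 CPM per kb, above both *Inha* (22.3 to 33.9) and *Amhr2* (58.3 to 73.5) in all 3. *Amh* and *Lhcgr*, *Lhcgr* and *Esr1*, and *Esr1* and *Fshr* do not differ beyond their spread, whereas the steps from *Inha* to *Inhbb* and from *Inhbb* to *Amh* are larger than the SDs. The level of *Insl3* was divided by its whole exon length, 623 bases, and it would be higher if only exon 1, 219 bases, had been counted. Its place below *Inha* in batch 2 holds for the whole length only. Set on exon 1 alone, *Insl3* would stand above *Inha* in fl/Y replicate 2 and cKO/Y Sox2-Cre replicate 1.

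The first comparison was between genotypes, which asks how total testis RNA differs when *Rlim* is deleted. None of the 8 tested hormone and receptor genes passed the threshold, an adjusted p under 0.05 in limma on log2(CPM + 0.5) with the batch as a covariate, and neither did any of them in edgeR or DESeq2 on reads recovered from the CPM values. At an unadjusted p under 0.05 the count was also 0 of 8 in each of limma, edgeR and DESeq2, where the share of all genes was 2.58%, 2.21% and 0.938%. Of all 19400 genes tested, 1, *Rlim*, was called in limma (0.00515%), and a count of 0 among 8 genes is near that background. In total RNA of a whole testis, fewer cells of a type and less RNA per cell cannot be told apart.

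The largest difference between genotypes was that of *Insl3*, at 0.69 on the log2 scale (SE 0.38, 95% interval -0.12 to 1.49, limma adjusted p = 1.00), where the means were 19.6 ± 27.7 CPM for fl/Y (SD over 3 libraries) and 47.5 ± 54.7 CPM for cKO/Y Sox2-Cre (SD over 4). Within batch 1 the difference was 0.73 and within batch 2 it was 0.66. It was 0.18 without fl/Y replicate 1, which had 6 reads, 1.21 without fl/Y replicate 2, and 1.36 without the batch term. *Inha* had the smallest p of the group, with a difference of 0.33 (SE 0.17, 95% interval -0.03 to 0.70, limma adjusted p = 1.00), and was 0.35 higher within batch 1 and 0.32 within batch 2. Group means were 28.8 ± 4.08 CPM in fl/Y and 38.1 ± 8.17 CPM in cKO/Y Sox2-Cre. Neither *Insl3* nor *Inha* differed beyond the spread between libraries after adjustment.

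The other 6 genes differed by less than 0.2 on the log2 scale. The difference was 0.18 (95% interval -0.67 to 1.03) for *Amh*, 0.13 (-0.31 to 0.57) for *Amhr2* and 0.12 (-0.29 to 0.53) for *Inhbb*. It was 0.01 (-0.48 to 0.51) for *Esr1*, -0.0035 (-0.90 to 0.90) for *Fshr* and -0.03 (-0.73 to 0.67) for *Lhcgr*. The intervals still hold changes of the sizes at their ends, and those of *Amh*, *Fshr* and *Lhcgr* are the wide ones of the 6. Differences were above 0 for 6 of the 8 genes, beside 48.8% of all genes tested. The median was 0.13 beside a median of -0.0055 over all genes. The fl/Y and cKO/Y Sox2-Cre libraries overlapped for all 8 genes, and over all genes tested 2.92% had groups that did not overlap.

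The second comparison was between batches, with genotype in the fit, and here *Insl3* was called. It was higher in batch 1 by 4.01 on the log2 scale (SE 0.38, 95% interval 3.21 to 4.82, limma adjusted p = 6.3e-05), with means of 77.3 ± 36.7 CPM (SD, n = 3) in batch 1 and 4.26 ± 2.36 CPM (n = 4) in batch 2. The lowest library of batch 1 was 8.22 times the highest of batch 2, and the means differed 18.1-fold. Of 19400 genes, 7.06% were called between batches, 698 higher and 672 lower in batch 1, and *Insl3* was number 7 of all by the size of the difference and number 5 by p. It stayed past the threshold in all 16 alternatives of the processing, with differences of 3.67 to 4.36 and adjusted p from 4.4e-09 to 0.0373. edgeR gave 4.06 (adjusted p = 2.2e-05) and DESeq2 gave 4.05 (adjusted p = 2.6e-07) on the recovered reads.

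The other 7 genes were not called between batches. *Inhbb* had a difference of 0.43 (SE 0.19, 95% interval 0.02 to 0.84, limma adjusted p = 0.178). Its batches did not overlap, by a margin between 17.7 CPM in batch 2 and 18.0 CPM in batch 1, as was so for *Insl3* and for 23.6% of all genes tested. When all libraries were rescaled to the same summed CPM, the difference of *Inhbb* was 0.67 with a limma adjusted p of 0.0467. The differences of *Amh* (0.49), *Inha* (0.31), *Amhr2* (0.29), *Esr1* (0.24), *Lhcgr* (0.12) and *Fshr* (-0.06) had limma adjusted p from 0.271 to 0.947. With a library left out, *Amh* ranged from 0.06 (without cKO/Y Sox2-Cre replicate 2) to 0.93 (without fl/Y replicate 3), and no difference of the 7 went above that, beside 3.67 or more for *Insl3*.

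**Figure D3:**
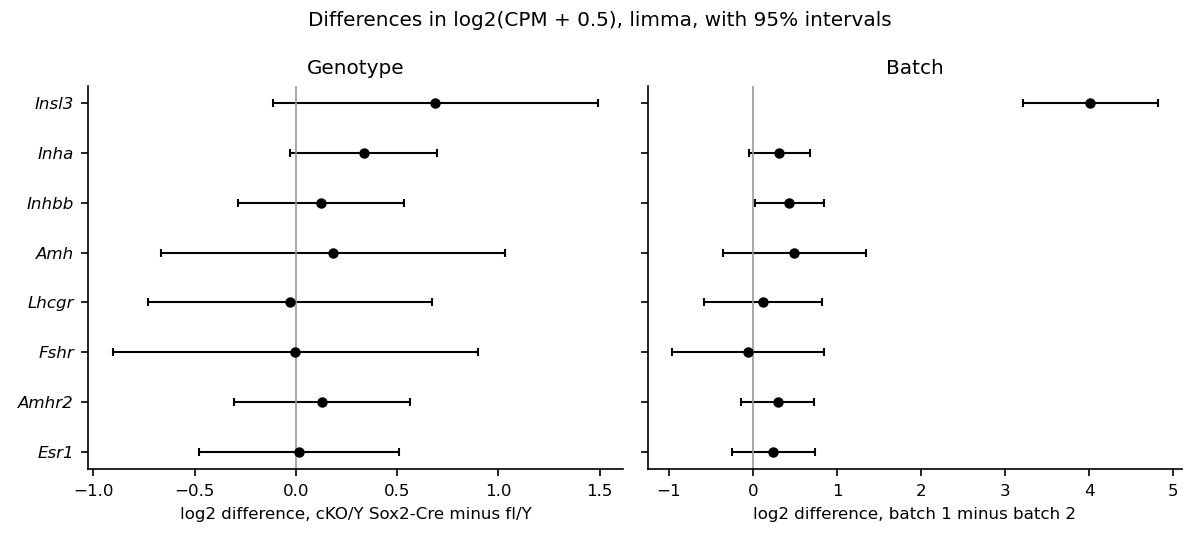
Differences in log2(CPM + 0.5) from limma for the 8 listed genes (y axis), between genotypes on the left and between batches on the right (x axes, log2 units), with 95% intervals as bars. All 8 genotype intervals include 0, and in the batch panel *Insl3* stands alone at 4.01 with an interval of 3.21 to 4.82.

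Whether the genotype difference itself varied between the batches was tested with an interaction term. No hormone or receptor gene was called, beside 2 of all genes in limma, *AC163296.3* and *Ltk* (0.0103%), named after their values were seen, and all 8 had a limma adjusted p of 1.00. The term was 1.09 (95% interval -0.63 to 2.81) for *Amh*, -0.73 (-2.62 to 1.17) for *Fshr*, -0.66 (-1.67 to 0.35) for *Esr1* and -0.53 (-2.05 to 0.98) for *Lhcgr*. It was between 0.02 and 0.06 for *Inha*, *Amhr2*, *Inhbb* and *Insl3*. Batch 1 holds a single fl/Y library, so these terms rest on that library.

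Ratios within each library were taken after 0.5 CPM was added to both genes, so that they still depend on the scaling where a gene is low, as *Insl3* is in batch 2. The log2 ratio of *Inhbb* to *Inha*, the subunits of inhibin B, was -0.86, -1.06 and -0.85 in fl/Y and -0.98, -1.37, -1.31 and -0.79 in cKO/Y Sox2-Cre. *Inha* thus had more reads than *Inhbb* in every library, and the difference between genotypes was -0.19 (exact permutation test, two-sided p = 0.40, adjusted p = 0.40 over 2 ratios). The log2 ratio of *Insl3* to *Lhcgr*, a hormone and a receptor of the same cell type, computed in the same way, was -1.91, -0.41 and 2.37 in fl/Y and -0.91, -0.46, 3.30 and 3.59 in cKO/Y Sox2-Cre. It was below 0 in all 4 libraries of batch 2 and at 2.37 or above in all 3 of batch 1. The difference between genotypes was 1.37 (exact permutation test, two-sided p = 0.40, adjusted p = 0.40 over 2 ratios), 0.48 in batch 2 alone, and from 0.40 without fl/Y replicate 1 to 2.54 without fl/Y replicate 3. Unlike the fits above, the permutation test has no batch term, and the batches are unbalanced over genotype. The difference of 1.37 is therefore not adjusted for batch. The smallest p that 3 against 4 libraries allow is 0.0571, so neither ratio could pass 0.05.

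The markers of Leydig cells, the cells known to make *Insl3*, overlapped between batches in their sum. The summed level of 13 Leydig cell markers was 691 to 884 CPM in batch 2 and 781 to 1066 CPM in batch 1, and 0 of 13 were called between batches in limma, a count near the background of 7.06% of all genes, with 10 above and 3 below 0 and a median of 0.21 beside 0.02 over all genes. None of the 13 was at 0 in any library, and *Cyp17a1*, *Cyp11a1* and *Star*, which carry out steps of steroid synthesis, were at 56.5 to 310 CPM. As a share of this sum, *Insl3* was at 0.126% to 0.853% in batch 2 and at 6.42% to 11.2% in batch 1. *Lhcgr* was at 0.631% to 1.66% in batch 2 and at 0.591% to 1.19% in batch 1.

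*Jak3*, whose last exon coincides with exon 2 of *Insl3*, had 2.42, 5.45 and 2.92 CPM in fl/Y, and 4.03, 3.99, 7.87 and 7.03 CPM in cKO/Y Sox2-Cre. Its batches overlap, and its batch difference was 0.38 (SE 0.32, limma adjusted p = 0.505). Of the 130 genes tested that had under 50% of their exon bases to themselves on the same strand, 9.23% were called between batches, beside 7.03% of the other genes with a matched transcript. The part of the shared exon in the batch difference of *Insl3* was not tested.

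**Figure D4:**
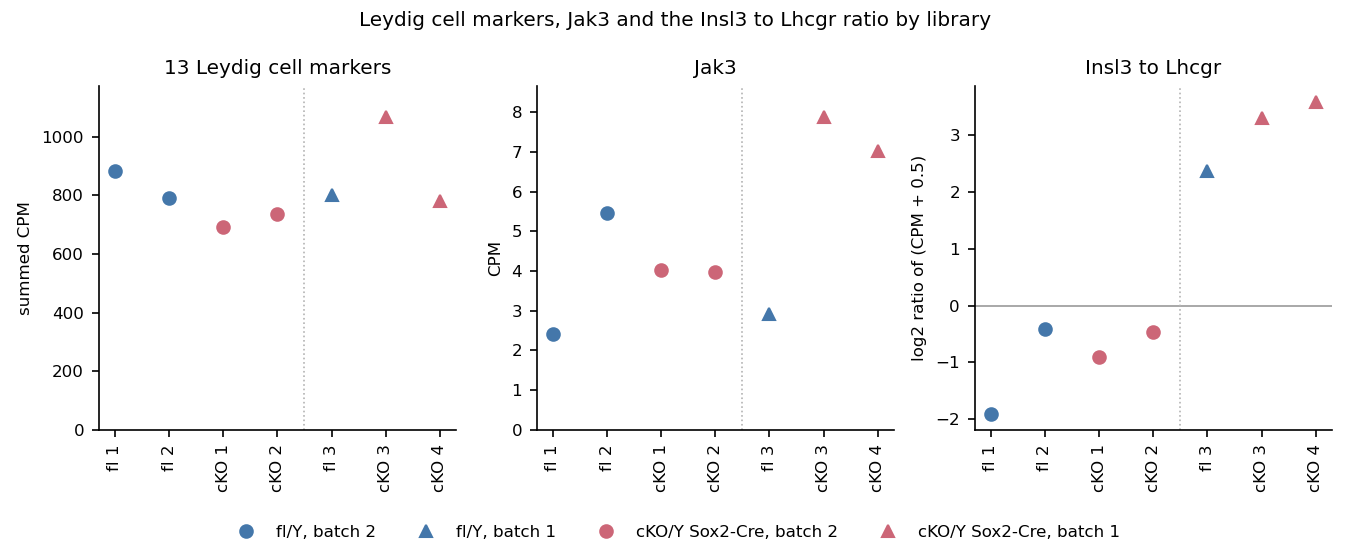
Summed level of the 13 Leydig cell markers (left, CPM), level of *Jak3* (middle, CPM) and log2 ratio of *Insl3* to *Lhcgr* (right) in each library, with fl/Y in blue, cKO/Y Sox2-Cre in red, and batch 2 (circles) left of the dotted line from batch 1 (triangles). The marker sum and *Jak3* overlap between batches, whereas the ratio is -1.91 to -0.41 in batch 2 and 2.37 to 3.59 in batch 1.

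The batches also differed in base composition and in germ cell markers. Over 19363 tested genes with a GENCODE M21 transcript, the batch difference had a Spearman correlation of 0.56 with the GC content of the longest transcript and of -0.05 with exon length. This is across genes of the same 7 libraries, and genes are not independent. The longest transcript of *Insl3* was 63.6% GC, that of *Amh* 65.5%, that of *Inhbb* 60.9%, that of *Inha* 59.7% and that of *Amhr2* 58.8%, above the median of 48.5%, and the 3 of *Fshr* (46.6%), *Esr1* (45.4%) and *Lhcgr* (41.9%) were below it. Batch differences ran from 0.29 (*Amhr2*) to 4.01 (*Insl3*) for the genes above this median. For those below it they ran from -0.06 (*Fshr*) to 0.24 (*Esr1*). The summed level of elongating spermatid markers was 9120 to 10329 CPM in batch 2 and 12319 to 14205 CPM in batch 1, with 4 of 10 higher in batch 1 (*Prm2*, *Tnp2*, *Odf1* and *Tssk6*). Of 10 spermatocyte markers, *Sycp1*, *Sycp2*, *Sycp3* and *Hormad1* were lower and *Hspa2* was higher in batch 1. The part of GC content and of germ cell composition in the batch difference of *Insl3* was not tested.

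Markers of the Sertoli cells, the known source of *Inha*, *Inhbb*, *Amh* and *Fshr*, were measured beside these genes. Their summed level was 778 to 1040 CPM in fl/Y and 760 to 1148 CPM in cKO/Y Sox2-Cre, 0 of 16 were called in limma between genotypes, and 1 of 16, *Espn*, was called, higher in batch 1, between batches. The median genotype difference of the 16 markers was 0.07 beside 0.33 for *Inha*. Over the 11 lists of cell markers, 0 of 99 tested genes were called between genotypes in limma, with 1 higher (*Pecam1*) and 4 lower (*Hsd3b6*, *Star*, *Rhox5* and *Stra8*) at an unadjusted p under 0.05, a threshold that 2.58% of all genes passed. *Hsd3b6* and *Star* are Leydig cell markers of steroid synthesis, with genotype differences of -1.27 and -0.33 beside 0.69 for *Insl3* and -0.03 for *Lhcgr*, and none passed the limma threshold. Of all 13 Leydig cell markers, 7 were above and 6 below 0 between genotypes, with a median of 0.01. *Cyp11a1* (0.05), *Cyp17a1* (0.07) and *Hsd3b1* (0.17) were among those above 0. edgeR and DESeq2 called none of the 99 markers either, with 4 and 0 at that unadjusted p.

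Genes related to these hormones by topic, called partner genes here, were read from 6 lists, of which 92 of 114 genes were listed and tested. The lists also hold receptors of other hormones, and not every gene in them is known to act in the signalling of these hormones. No partner gene was called between genotypes in limma, edgeR or DESeq2, with 1, 1 and 0 genes at an unadjusted p under 0.05, in limma the vasopressin receptor *Avpr1a*. Between batches limma called 6 (6.52%), all lower in batch 1, a share near the 7.06% of all genes.

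The list of inhibin, activin and AMH signalling holds type I and type II receptors, SMAD proteins and binding proteins, and 19 of its 24 genes were tested, with a median genotype difference of -0.05. Its members of highest mean CPM, which was not set per length, were the receptors *Tgfbr1*, *Bmpr1a* and *Bmpr2* and the signal carrier *Smad5*. *Bmpr1a*, a type I receptor through which AMH signals, averaged 45.3 ± 7.85 CPM in the 3 fl/Y libraries and 41.2 ± 12.6 CPM in the 4 of cKO/Y Sox2-Cre (mean ± SD). *Tgfbr1* (-0.69), *Bmpr1a* (-0.62) and *Bmpr2* (-0.66) fell in batch 1 on the log2 scale, with limma adjusted p of 0.0387, 0.029 and 0.0265, the direction opposite to that of *Insl3*. *Tgfbr3*, or betaglycan, the coreceptor that lets inhibin bind activin receptors, averaged 24.0 ± 3.89 CPM in fl/Y and 22.9 ± 3.77 CPM in cKO/Y Sox2-Cre. The activin receptor *Acvr2a* was at 22.7 to 41.9 CPM, *Acvr2b* at 1.49 to 3.102 CPM and the inhibitory SMAD gene *Smad7* at 0.929 to 2.92 CPM over the 7 libraries. *Fst*, which encodes the activin-binding follistatin, is not listed.

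Of the list of gonadotropins and cAMP signalling, the second messenger of LHCGR and FSHR, 28 of 36 genes were tested, 14 above and 14 below 0 between genotypes. The FSH beta subunit *Fshb*, the shared alpha subunit *Cga* and *Gnrhr*, genes of the pituitary, are not listed. *Lhb*, the luteinizing hormone beta subunit, is listed at 2.60 to 7.24 CPM, and *Gnrh1*, the precursor of gonadotropin-releasing hormone, at 1.24 to 2.41 CPM, neither called in either comparison. The members of highest mean CPM were the soluble adenylyl cyclase *Adcy10*, at 413 to 561 CPM, *Crem*, a cAMP-responsive regulator of spermatid genes, at 174 to 223 CPM, *Prkar2a*, a regulatory subunit of protein kinase A, at 125 to 183 CPM, and the phosphodiesterase *Pde8a*, at 106 to 232 CPM. *Prkar1a*, another regulatory subunit, fell in batch 1 by 0.60 on the log2 scale (limma adjusted p = 0.0429).

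The receptor of INSL3, *Rxfp2*, averaged 10.7 ± 2.52 CPM in fl/Y (SD over 3 libraries) and 10.7 ± 3.88 CPM in cKO/Y Sox2-Cre (SD over 4). Its batch difference was -0.13 (SE 0.28, limma adjusted p = 0.817), beside 4.01 for the hormone gene. *Insl6*, a relative of *Insl3* known from germ cells, was at 63.6 to 86.3 CPM, with a batch difference of -0.27 (limma adjusted p = 0.256). The other 6 genes of this list of 8, among them *Rxfp1* and *Rln1*, are not listed.

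Of the sex steroid receptors and their coregulators, 12 of 14 genes were tested, with *Ncor1*, *Ncoa2* and *Pgrmc1* among those of highest mean CPM. *Esr2*, the other estrogen receptor gene, and the progesterone receptor gene *Pgr* are not listed. All 14 genes of other hormone receptors were tested, with *Adipor1*, *Prlr*, *Adipor2* and *Igf2r* those of highest mean CPM. The prolactin receptor *Prlr* (-0.64) and *Igf1* (-1.07), an insulin-like growth factor, fell in batch 1 on the log2 scale, with limma adjusted p of 0.0356 and 0.016.

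Of the transcription factors known to regulate the hormone genes, 17 of 18 were tested, 11 above and 6 below 0 between genotypes and 9 above and 8 below 0 between batches. *Nr5a1*, which encodes the factor of the AAGGTC motif, was at 13.8 to 27.3 CPM in batch 2 and 17.5 to 37.5 CPM in batch 1, with a batch difference of 0.21 (SE 0.27, limma adjusted p = 0.669). *Wt1* was at 34.1 ± 3.15 CPM in fl/Y and 40.1 ± 7.68 CPM in cKO/Y Sox2-Cre, *Gata4* at 13.9 ± 3.90 and 14.2 ± 3.88 CPM and *Dmrt1* at 18.1 ± 3.01 and 15.5 ± 4.52 CPM, all known from Sertoli cells.

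For each member with a mean of at least 2 CPM, up to 2 genes with the most similar profile over the 7 libraries were found among 15795 genes by the Pearson correlation of log2(CPM + 0.5). For *Insl3* these were *Atmin* (r = 0.996) and *Ap2a1* (r = 0.995), which ranged from 53.2 to 87.5 CPM and from 109 to 247 CPM, a far smaller range than that of *Insl3*. For *Lhcgr* they included *Gnptg* (r = 0.976) and *Gm11981* (r = 0.956), for *Inha* *Ramp3* (r = 0.981), and for *Inhbb* *Zfp598* (r = 0.996) and *Tns1* (r = 0.994). *Amhr2* was most like *Pim3* and *Cyb5r3* (r = 0.995 and 0.994), and *Esr1* was like *Auts2* (r = 0.984). With 7 libraries that share depth and batch, such values describe these libraries only.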

How the data were processed

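The deposited table gives normalized signal values, CPM as computed by the authors, for each gene and library. The submitters' processing notes name HISAT2 2.1.0, featureCounts, edgeR and GRCm38, whereas the methods of the study name other aligning and counting tools, and the counting settings are not given in the sources used here. Columns sum to 866540 to 1219900 CPM, so library sizes were scaled. Whole reads were recovered from the steps of each column (100% of values within 0.002 of a read). Counting per gene can leave out reads of exons shared between genes, as for *Insl3*.

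Genes above 1 CPM in at least 3 of 7 libraries (19400) were fitted by limma 3.58.1 in R 4.3.3 on log2(CPM + 0.5), with genotype and batch and a trend in the prior variance. P-values are two-sided, adjusted by Benjamini-Hochberg over all genes tested, with a threshold of 0.05. Fold changes are on that scale and understate those of low genes. Recovered reads were tested by edgeR 4.0.16 (quasi-likelihood) and DESeq2 1.42.0 as alternatives. Ratios were tested by exact permutation without a batch term (scipy 1.17.1). Ratios with *Inhba* could not be formed, so 2 were tested. The limma fit was also run on simulated data that held no batch difference, and no result above rests on that run. Counting intervals are exact Poisson intervals at 95%. Sequences, coordinates and exon lengths are from GENCODE M21 and RefSeq (GRCm38), and the coordinates of *Insl3* are the same in the deposited table.

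The members, lists and tests were chosen with earlier results of these data known. Genes named are the 9 members, *Rlim*, the up to 4 of highest mean CPM and all called genes of each partner list, *Rxfp2*, *Esr2*, *Tgfbr3*, *Fst*, *Acvr2a*, *Acvr2b* and *Smad7*, and the 2 most similar genes of each member, with some genes under this rule not reported here. *Jak3*, *Lhb*, *Gnrh1*, the individual markers and the other genes named as not listed were chosen after their values were seen, as were the comparisons with GC content and shared exons.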

Additional observations from a re-analysis of the deposited data

How the results depend on the processing

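No member was called between genotypes under any of the 19 alternatives, and *Insl3* was called between batches under all 16 that fit a batch term (the batch values of single members were added after seeing the data). Both ratios kept their direction in all 11 of their alternatives, but with a library left out *Inhbb* to *Inha* ran from -0.11 (without cKO/Y Sox2-Cre replicate 2) to -0.30 (without replicate 4) and *Insl3* to *Lhcgr* from 0.40 to 2.54 (without fl/Y replicates 1 and 3). The single genotype call became 0 without a variance trend, without the batch term, with a replicate block and in batch 2 alone, and 0 to 3 when a library was left out. Same-numbered libraries correlated at 0.10, 0.07 and 0.39 in their deviations from group means. Differently numbered ones correlated at -0.49 to 0.47. These deviations also hold the batch difference, so the check cannot decide whether same-numbered libraries are of 1 litter. The numbers were not read as pairs, and the replicate block changed no call of a member. It gave 0.84 for *Insl3*, 0.21 for *Lhcgr*, -0.30 for the *Inhbb* to *Inha* ratio and 0.63 for the *Insl3* to *Lhcgr* ratio. Uncalled genotype differences that turned sign were those of *Fshr* (0.011 with a pseudocount of 1, 0.10 in edgeR, 0.11 in DESeq2), *Lhcgr* (0.18 in batch 2, 0.019 in DESeq2), *Amh* (-0.25 in batch 2) and *Esr1* (-0.017 in edgeR, -0.0042 in DESeq2). Leaving out a library gave -0.38 to 0.29 for *Fshr*, -0.34 to 0.21 for *Lhcgr*, -0.25 to 0.61 for *Amh*, -0.14 to 0.28 for *Esr1*, -0.087 to 0.35 for *Amhr2* and -0.0089 to 0.26 for *Inhbb*. Batch calls were 2316 (2101 higher) when libraries were scaled to equal sums, with 2 members, 122 without a variance trend, and 51 (without fl/Y replicate 3) to 3024 (without cKO/Y Sox2-Cre replicate 1) with a library left out, within 1.5 times the count of 1370 only without fl/Y replicate 2. The batch difference of *Fshr* was 0.12 with equal sums and 0.035 in edgeR, and with a library left out -0.35 to 0.31 for *Fshr*, -0.14 to 0.49 for *Lhcgr*, -0.025 to 0.40 for *Esr1*, 0.071 to 0.51 for *Amhr2*, 0.19 to 0.44 for *Inha* and 0.29 to 0.56 for *Inhbb*. The causes were not tested. Depth limits *Fshr* and *Amh*, which had 2 to 30 reads in a library.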
